A study of Mus musculus with 12 samples.

Results

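Blood stem cells are held in, and find their way back to, the bone marrow through surface receptors for chemokines, lipids and matrix. The 9 genes followed here encode such receptors of homing and niche adhesion: Cxcr4, S1pr1, Itga4, Itga5, Itga6, Itgb1, Itgal, Itgb2 and Cd44. They were chosen by gene symbol, with earlier results of these data known. All 9 have a row among the 35869 genes of the deposited tables. The libraries were made from mouse hematopoietic stem cells of the bone marrow, sorted by flow cytometry for the presence (CD41pos) or absence (CD41neg) of CD41, the alpha chain of the platelet fibrinogen receptor. The knockout (KO) mice were MxCre1+/-,RUNX1f/f and the controls (WT) MxCre1-/-,RUNX1f/f, so both carried floxed alleles of Runx1, which encodes a DNA-binding regulator needed to form blood stem cells, and only the KO carried the interferon-inducible Cre. All mice were injected 4 times with poly(I:C), which switches this Cre on, and cells were taken 4 weeks later. MxCre1 is also active in interferon-responsive cells outside the stem cell pool, such as stromal cells of the marrow. Each of the 4 groups had 3 libraries, numbered 1, 3 and 4 for CD41pos WT, 2, 3 and 4 for CD41neg WT, and 1 to 3 for the KO of each gate. No label states that the libraries of a group came from separate animals, so a p-value here is set against the scatter of libraries, part of which may be technical.

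CXCR4, the receptor of the stromal chemokine CXCL12, draws stem cells to the marrow and keeps them there, while S1PR1 senses sphingosine-1-phosphate, which is abundant in blood and lymph and guides cells out of tissues. Integrins are pairs of an alpha and a beta chain: the beta-1 chain Itgb1 pairs with Itga4 to bind VCAM-1 and fibronectin, with Itga5 to bind fibronectin and with Itga6 to bind laminins, and the beta-2 chain Itgb2 pairs with Itgal to form LFA-1, which binds ICAM-1. CD44 binds hyaluronan. Messenger RNA does not show how much of a chain is paired or on the surface.

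RUNX1 binds DNA at the core letters TGTGGT or TGCGGT. RefSeq promoter windows (GRCm38.p6, 250 bases before to 50 after the annotated start) were at hand for 5 of the 9 genes, Cxcr4, Cd44, Itga4, Itga5 and Itgb1. A search of both strands for these letters found 1 match, in Itga4, at 60 to 55 bases before the start, where the plus strand reads ACCACA, the reverse complement of TGTGGT. The windows of Cxcr4, Cd44, Itga5 and Itgb1 held no match, and 22.4% of the 32851 windows in the table held at least 1. The 250 bases before the start of Itga4 (chr2:79255176-79255425, plus strand) and of its partner chain Itgb1 (chr8:128685404-128685653, plus strand) are shown because these chains form one receptor, with the match in capitals. A match is a description of letters and not a binding site.
Itga4: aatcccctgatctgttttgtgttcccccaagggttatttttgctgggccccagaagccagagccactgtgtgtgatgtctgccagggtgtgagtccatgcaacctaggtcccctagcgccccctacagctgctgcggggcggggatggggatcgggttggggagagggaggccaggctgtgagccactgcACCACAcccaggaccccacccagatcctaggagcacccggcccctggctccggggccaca
Itgb1: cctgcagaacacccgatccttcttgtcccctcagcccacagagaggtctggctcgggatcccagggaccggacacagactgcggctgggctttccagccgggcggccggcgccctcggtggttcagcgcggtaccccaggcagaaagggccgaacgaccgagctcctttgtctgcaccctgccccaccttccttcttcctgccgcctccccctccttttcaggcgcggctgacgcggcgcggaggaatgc

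In the mm10 build, as whole gene spans of GENCODE vM21, Itga4 lies on the plus strand of chromosome 2 at 79255426 to 79333123, near neither Itga6 (chromosome 2, 71745616 to 71858416, plus strand) nor Cd44 (chromosome 2, 102811141 to 102901665, minus strand). Itgb1 lies on chromosome 8 at 128685654 to 128733200 and Itga5 on chromosome 15 at 103344286 to 103366763. The LFA-1 chains lie on chromosome 7 (Itgal, 127296260 to 127335138) and chromosome 10 (Itgb2, 77530252 to 77565708). Cxcr4 lies on chromosome 1 at 128588199 to 128592293 and S1pr1 on chromosome 3 at 115710433 to 115715072, both on the minus strand. All 9 are annotated as protein-coding.

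Total counts per library ran from 44108035 to 58946457, and every one of the 9 genes had at least 429 reads in each library. Levels below are CPM, read counts scaled to the size of the library after trimmed mean of M values (TMM) normalisation, and a gene was called where edgeR's quasi-likelihood test gave a Benjamini-Hochberg adjusted p below 0.05 over the 19395 genes tested. Itga2b, the gene of CD41, followed the gates, at 551 to 683 CPM in CD41pos WT and 1030 to 1270 in CD41pos KO against 49.6 to 138 in CD41neg WT and 213 to 270 in CD41neg KO. Runx1 stood at 159, 141 and 147 CPM in CD41pos WT, 84, 90.5 and 65.7 in CD41neg WT, 270, 382 and 325 in CD41pos KO and 171, 157 and 163 in CD41neg KO. The gene total was thus higher, not lower, in the libraries labelled KO. It sums all exons and cannot show whether the floxed part is gone, so it does not check the genotype labels, and KO and WT below mean the libraries so labelled. Stem cell markers were present in all groups, with 10 of them summing to 1140 to 2710 CPM per library.

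Several features of the libraries move with the comparisons. The library CD41pos WT 3 was the lowest of its group for 8 of the 9 genes and the highest for Cxcr4. Besides it, 4 WT libraries with lower library numbers than all others (WT 1 and WT 4 of CD41pos, WT 2 and WT 4 of CD41neg) differed from the WT 3 libraries in 0.629% of genes, none of them among the 9. The WT libraries bear lower numbers than every KO library, so library order and genotype cannot be told apart. Genes with long transcripts were higher in the KO: among genes of at least 10 CPM, the median log2 difference in CD41pos went from -0.55 for transcripts under 1 kb to 0.48 for those over 6 kb, and in CD41neg from -0.26 to 0.39. The fitted slope (8 kb minus 1 kb, log2) was -1.1 in CD41pos WT 3, -0.48 to 0.04 in the other WT libraries and 0.23 to 0.45 in the KO libraries. Of the 9 transcripts, Cxcr4 was the shortest at 1805 bases and Itga4 the longest at 9767.

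**Figure D1:**
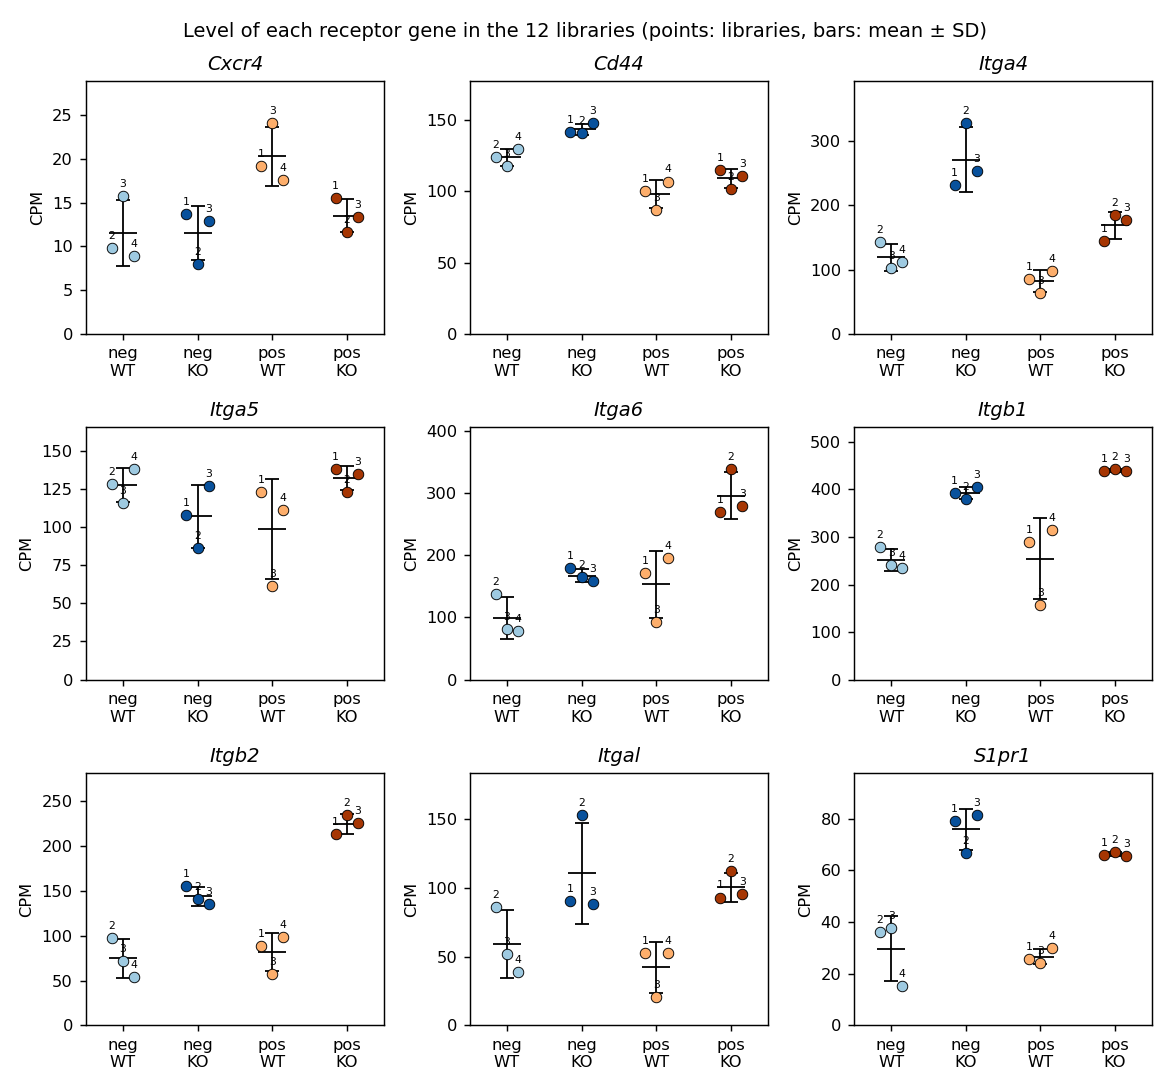
TMM-normalised level (CPM) of each of the 9 receptor genes in every library, by gate (pos, neg) and genotype. Points are libraries with their label number, and bars give the mean and SD of 3 libraries. Itgb2, S1pr1, Itga4, Itga6, Itgb1 and Itgal lie higher in the 3 KO than in the 3 WT libraries of both gates, and CD41pos WT 3 is the low point of its group in 8 of the 9 panels.

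The first question was which of the receptors differ between KO and WT stem cells in the CD41pos gate. Transcripts of 6 of the 9 were higher in the KO: both chains of LFA-1, the alpha-4, alpha-6 and beta-1 chains, and S1pr1, by 1.73-fold to 2.74-fold in group means. None was lower. Over all genes tested, 17.1% were called in this comparison, 9.79% higher and 7.27% lower. The median log2 difference was -0.082 over all genes and 0.951 over the 9. Among genes of at least 10 CPM, the share called higher rose with transcript length. It was 1.8% at 1 to 2 kb, 9.29% at 2 to 3 kb, 17.9% at 3 to 4 kb, 29.2% at 4 to 6 kb and 38.5% over 6 kb. The KO and WT libraries did not overlap for 7 of the 9 genes, against 44.3% of all genes. Since the 9 were chosen with earlier results of these data known, the values of all genes, here and below, serve only as a description. These are bulk libraries, in which fewer cells of a type and less RNA per cell cannot be told apart.

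Itgb2, the beta chain shared by the leukocyte integrins, stood at 213, 235 and 226 CPM in CD41pos KO 1, 2 and 3 and at 89.1, 57.6 and 98.9 in CD41pos WT 1, 3 and 4. The lowest KO library was more than 100 CPM above the highest WT library. The log2 fold change was 1.45 ± 0.22 (SE; edgeR adjusted p = 0.00299). Its partner Itgal, the alpha chain of LFA-1, stood at 92.9, 112 and 95.7 CPM in the KO and at 52.7, 20.9 and 52.9 in WT. No KO library overlapped a WT library, and the log2 fold change was 1.25 ± 0.36 (edgeR adjusted p = 0.0358). The library CD41pos WT 3 lay well below the other WT libraries. Without it the call on Itgal was lost, at 0.95 and an adjusted p of 0.0715.

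Among the chains that pair with beta-1, Itga4, the alpha chain that binds VCAM-1, stood at 145, 185 and 177 CPM in the KO and at 85.6, 63.8 and 97.9 in WT, again with no overlap. Its log2 fold change was 1.03 ± 0.19 (edgeR adjusted p = 0.00626). Itga4 shares exon bases with Cerkl, and with a kit that does not mark strand the reads of this stretch cannot be assigned to either gene. Itga6, a laminin-binding chain, stood at 269, 339 and 280 CPM in the KO against 172, 92.5 and 195 in WT, a log2 fold change of 0.95 ± 0.26 (edgeR adjusted p = 0.03). Itgb1 stood at 438, 443 and 439 CPM in the KO and at 290, 157 and 315 in WT. The coefficient of variation of Itgb1 was 0.62% in the KO and 33.6% in WT, and the log2 fold change was 0.79 ± 0.2 (edgeR adjusted p = 0.0206). Itga5, the alpha chain of the fibronectin receptor, did not pass, with 138, 123 and 135 CPM in the KO and 123, 61.2 and 111 in WT. Its log2 difference was 0.43 (95% interval -0.05 to 0.91; edgeR adjusted p = 0.184), so a rise as large as that of Itgb1 lies within the interval.

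S1pr1, the receptor for sphingosine-1-phosphate, stood at 66.1, 67 and 65.4 CPM in CD41pos KO and at 25.6, 24.3 and 29.9 in WT. All KO libraries were over 2 times as high as every WT library, and the log2 fold change was 1.31 ± 0.26 (edgeR adjusted p = 0.00872). Cxcr4 went the other way, with 15.5, 11.7 and 13.4 CPM in the KO and 19.2, 24.1 and 17.6 in WT. The libraries did not overlap, but the difference of -0.58 did not pass (95% interval -1.17 to 0, edgeR adjusted p = 0.14). Among genes of at least 10 CPM, the median log2 difference in CD41pos was -0.32 at 1 to 2 kb, the length class of Cxcr4. At 3 to 4 kb, the class of S1pr1, it was 0.19. Cd44 stood at 115, 102 and 111 CPM in the KO and at 100, 87.3 and 107 in WT, which overlap. Its log2 difference was 0.15 (95% interval -0.08 to 0.39; edgeR adjusted p = 0.325).

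The calls on Itgb2, Itga4 and S1pr1 held without any single library. Those on Itga6, Itgb1 and Itgal were lost when CD41pos KO 1, KO 2 or KO 3 was left out, at adjusted p of 0.054 to 0.111, and with limma on log2(TPM + 1) or log2(TPM + 0.1), at adjusted p of 0.0574 to 0.0709. With only the CD41pos groups in the fit, Itga6 (adjusted p = 0.0526) and Itgb1 (adjusted p = 0.0643) did not pass. The call on Itga6 was lost also without CD41pos WT 3, at 0.71 and an adjusted p of 0.0524. With a correction for the transcript length pattern of each library, an alternative added after seeing the data, the same 6 genes passed, with log2 fold changes of 1.47 for Itgb2, 1.3 for S1pr1, 1.06 for Itgal, 0.81 for Itga6, 0.7 for Itgb1 and 0.68 for Itga4, while that of Cd44 turned to -0.11 (edgeR adjusted p = 0.552). A term for the 4 WT libraries of lower number puts the WT level at that of the WT 3 libraries. With it, Cxcr4 (-0.96, edgeR adjusted p = 0.027) and Itga5 (0.85, edgeR adjusted p = 0.021) passed as well.

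**Figure D2:**
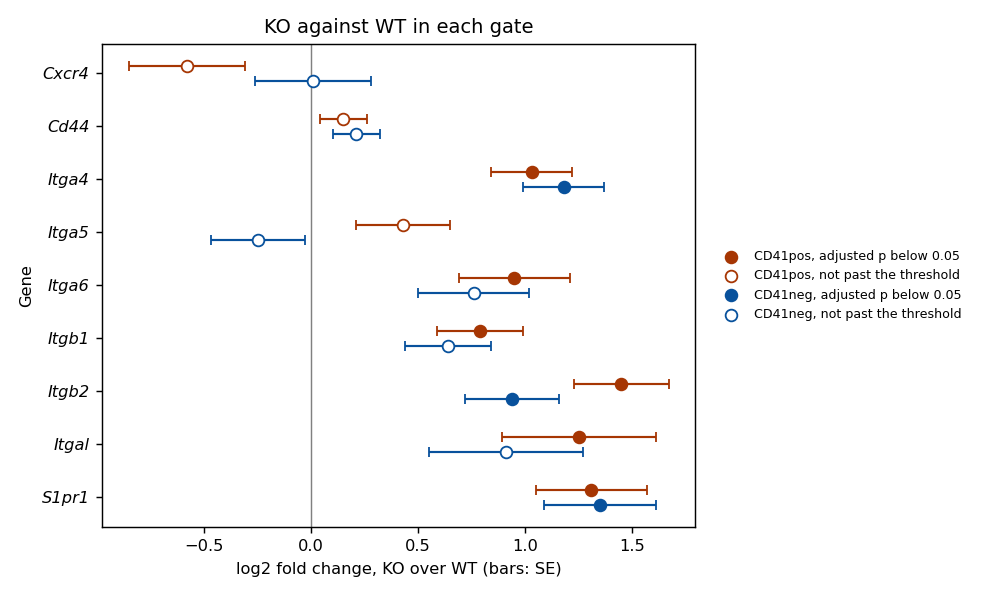
Log2 fold change of KO over WT for each gene in CD41pos (red) and CD41neg (blue), with the SE from the edgeR fit of 12 libraries; filled points passed an adjusted p of 0.05. In CD41pos, 6 genes passed, with Itgb2 highest at 1.45, and in CD41neg, Itga4, Itgb2 and S1pr1 passed.

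The same question was asked in the CD41neg gate. Here 3 of the 9 receptor genes were higher in the KO, namely Itga4, S1pr1 and Itgb2, by 1.92-fold to 2.55-fold in group means, and none was lower. Over all genes tested, 7.82% were called, 3.85% higher and 3.97% lower. Among genes of at least 10 CPM, the share called higher was 1.16% at 1 to 2 kb, 2.11% at 2 to 3 kb and 3.27% at 3 to 4 kb. It was 6.92% at 4 to 6 kb and 19.5% over 6 kb. The median log2 difference was -0.026 over all genes and 0.757 over the 9, and the libraries did not overlap for 7 of the 9, against 35.5% of all genes.

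Itga4 stood at 232, 328 and 253 CPM in CD41neg KO 1, 2 and 3 and at 143, 103 and 112 in CD41neg WT 2, 3 and 4. Its KO libraries were the highest of all 12, and the log2 fold change was 1.18 ± 0.19 (edgeR adjusted p = 0.00634). S1pr1 stood at 79.2, 66.7 and 81.5 CPM in the KO and at 36.3, 37.5 and 15.2 in WT, without overlap. The log2 fold change was 1.35 ± 0.26 (edgeR adjusted p = 0.0136). Itgb2 stood at 156, 141 and 135 CPM in the KO and at 98, 72.3 and 54.5 in WT, a log2 fold change of 0.94 ± 0.22 (edgeR adjusted p = 0.0245). The WT libraries of this gate spread widely for both S1pr1 and Itgb2, and CD41neg WT 4 was the lowest for each.

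The other chains of these integrins lay higher in the KO but did not pass. Itgb1 stood at 392, 380 and 405 CPM against 278, 241 and 235 in WT, with a log2 difference of 0.64 (95% interval 0.21 to 1.07; edgeR adjusted p = 0.0661). Itga6 stood at 179, 165 and 158 CPM against 138, 81.5 and 77.7, with a log2 difference of 0.76 (95% interval 0.18 to 1.33; edgeR adjusted p = 0.0954). Neither gene's KO libraries overlapped those of WT. Itgal, at 90.1, 153 and 88.2 CPM against 86.3, 52 and 38.6, differed by 0.91 (95% interval 0.12 to 1.69; edgeR adjusted p = 0.135), with CD41neg KO 2 far above the other KO libraries. Cd44 was at 142, 141 and 148 CPM against 124, 118 and 130, a small shift with no overlap that did not pass (0.21, 95% interval -0.02 to 0.45; edgeR adjusted p = 0.233). Itga5 and Cxcr4 overlapped between the genotypes: Itga5 was at 108, 86 and 127 CPM in the KO against 128, 116 and 138, and Cxcr4 at 13.7, 7.98 and 12.9 against 9.82, 15.8 and 8.87. Their log2 differences were -0.25 (95% interval -0.73 to 0.23) and 0.01 (95% interval -0.58 to 0.59).

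The call on Itga4 held without any single library. That on Itgb2 was lost without CD41neg WT 3, WT 4, KO 1, KO 2 or KO 3, at adjusted p of 0.0586 to 0.084, and with limma on log2(TPM + 1) (adjusted p = 0.0703) and log2(TPM + 0.1) (adjusted p = 0.0787). That on S1pr1 was lost without CD41neg KO 3, at 1.3 and an adjusted p of 0.0542. Without CD41pos WT 3, which enters the shared estimate of the spread, 6 genes passed in this gate, Itga6 (0.77, adjusted p = 0.0201), Itgb1 (0.66, adjusted p = 0.00123) and Itgal (0.92, adjusted p = 0.0409) being added, and the length correction left 5, with Itga6 and Itgb1 added. With the term for the 4 WT libraries, which sets the KO against the level of the WT 3 libraries, 6 passed. Itga6 (1.22), Itgb1 (0.96) and Itgal (1.4) were added at edgeR adjusted p of 0.0154 to 0.0464. These settings alter the fit of every gene, so their counts are not to be read against the shares of all genes given above.

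**Figure D3:**
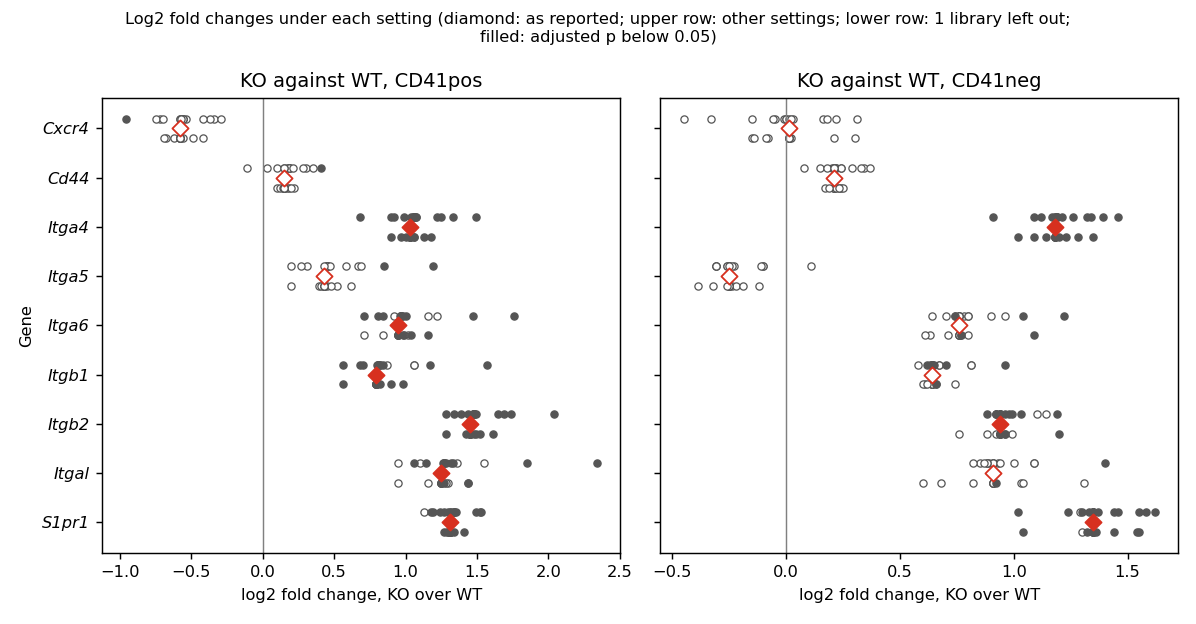
Log2 fold change of KO over WT for each gene in CD41pos (left) and CD41neg (right) as reported (diamond), under the other settings (upper circles) and with 1 library left out (lower circles); filled symbols have an adjusted p below 0.05. Every symbol of Itga4 is filled in both panels, as is every symbol of Itgb2 in CD41pos.

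Markers of other cell types also moved with genotype. Over all genes tested, 7.27% were called lower in CD41pos and 3.97% in CD41neg, and 9.79% and 3.85% were called higher. Of 8 stromal markers, 5 were lower and none higher in the KO in each gate, and their sum was 188 to 858 CPM in the WT libraries against 28.6 to 42.8 in the KO libraries. They include Cxcl12, the ligand of CXCR4, at 56.7 to 144 CPM in WT and 3.03 to 11 in the KO. Of 5 basophil and mast cell markers, 3 were lower in each gate, with sums of 99.2 to 604 CPM in WT and 48 to 119 in the KO. The other 2, Cpa3 and Ms4a2, were not called lower and had higher means in the KO of each gate. In CD41pos, Cpa3 ran from 22 to 53.5 CPM in WT and from 79.4 to 87.6 in the KO. Ms4a2 ran from 7.51 to 17.7 and from 24.5 to 37.9 there. The 5 B and plasma cell markers summed to 137 to 2970 CPM in WT and 49.3 to 179 in the KO, with Jchain lower in each gate. The 6 endothelial markers summed to 50.8 to 137 CPM in WT, 141 to 177 in CD41pos KO and 74.4 to 94.7 in CD41neg KO, with 1 higher and 1 lower in CD41pos and 4 lower in CD41neg. The 6 T and NK cell markers summed to 89.3 to 304 CPM in WT and 53.5 to 139 in the KO, the 7 monocyte markers to 35.7 to 66.4 and 10.3 to 67.7, the 6 neutrophil markers to 20.1 to 492 and 18.6 to 173, and the 4 erythroid markers to 62.5 to 804 and 315 to 705. No listed marker was at 0 in all 3 libraries of a group. Mature blood cells also express Itgal, Itgb2, Itga4 and Cd44, and the part of these cells in the differences between genotypes was not tested. The 8 megakaryocyte markers followed the gate, at 951 to 1200 CPM in CD41pos and 221 to 440 in CD41neg libraries.

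The next question was whether CD41pos and CD41neg stem cells differ in these receptors. None of the 9 passed in WT or in KO with edgeR, although 4 in each genotype had an unadjusted p below 0.05. Over all genes tested, 5.59% were called between the gates in WT, 2.72% higher and 2.87% lower in CD41pos, and 2.79% in KO, 1.56% higher and 1.23% lower. DESeq2, which called 12.4% of genes in WT and 6.6% in KO, called 2 of the 9 in each genotype, Cxcr4 (0.8, adjusted p = 0.0294) and Cd44 (-0.35, adjusted p = 0.02) in WT and Cd44 (-0.39, adjusted p = 0.0125) and Itga4 (-0.67, adjusted p = 0.0336) in KO.

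Cd44 lay lower in CD41pos in both genotypes, with no overlap between the gates in either. The log2 difference was -0.34 in WT (95% interval -0.57 to -0.1; edgeR adjusted p = 0.0877) and -0.4 in KO (95% interval -0.63 to -0.16; edgeR adjusted p = 0.0791). Itga4 had the same direction and no overlap, at -0.53 in WT (95% interval -0.94 to -0.12; edgeR adjusted p = 0.121) and -0.68 in KO (95% interval -1.09 to -0.27; edgeR adjusted p = 0.0865). Itga6 lay the other way, at 0.63 in WT (edgeR adjusted p = 0.187), where the libraries overlapped, and at 0.82 in KO (edgeR adjusted p = 0.143), where they did not. Cxcr4 was at 0.82 in WT (95% interval 0.24 to 1.41; edgeR adjusted p = 0.0935), with 17.6 to 24.1 CPM in CD41pos against 8.87 to 15.8 in CD41neg, and at 0.23 in KO (95% interval -0.35 to 0.81). Itgb2 was at 0.13 in WT and 0.64 in KO (95% interval 0.17 to 1.11; edgeR adjusted p = 0.169), and in KO the gates did not overlap. S1pr1 differed by -0.16 in WT and -0.2 in KO, with overlap in both. The libraries of the gates did not overlap for 3 of the 9 genes in WT and 5 of the 9 in KO, against 22.8% and 29.9% of all genes. Without CD41pos WT 3, 4 genes passed between the gates in KO: Cd44 (-0.38), Itga4 (-0.66), Itga6 (0.84) and Itgb2 (0.66), at edgeR adjusted p of 0.0175 to 0.0471. That library enters the estimate of the spread shared by all groups. This count is therefore not to be read against the shares of all genes given above. The gate differences above were fitted without pairing the gates. With genotype and number taken as an animal label for a block, in WT as in KO, none of the 9 passed between the KO gates. In that fit 156 genes were called in place of 541.

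**Figure D4:**
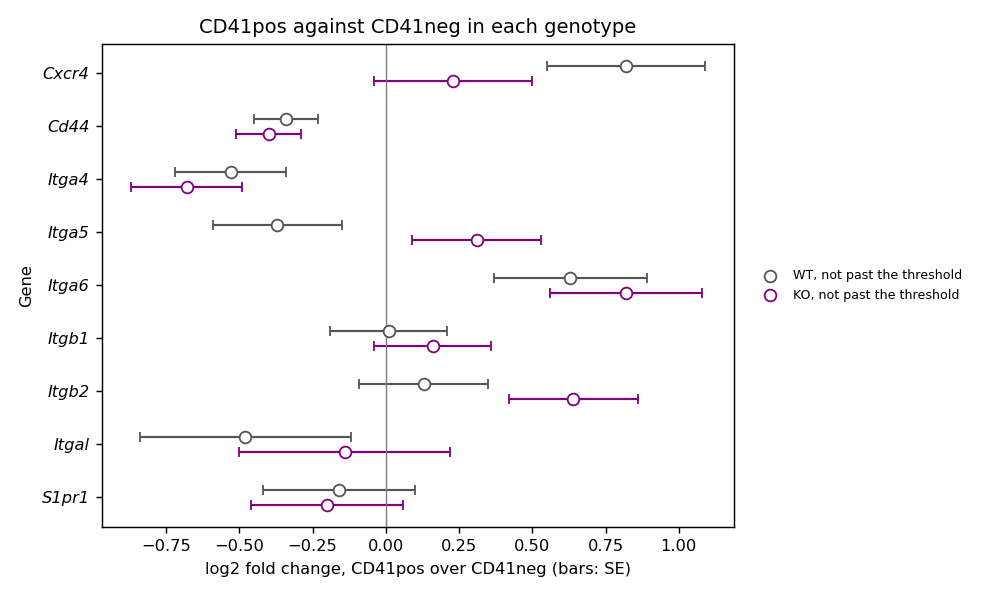
Log2 fold change of CD41pos over CD41neg for each gene in WT (grey) and KO (purple), with the SE from the edgeR fit of 12 libraries; open points did not pass an adjusted p of 0.05. Cd44 and Itga4 lie below 0 and Itga6 above 0 in both genotypes, and no point passed.

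Whether the genotype difference itself changed with the gate was tested as an interaction. None of the 9 genes, and 0% of the genes tested, passed with edgeR, 1093 genes and 1 of the 9 having an unadjusted p below 0.05; DESeq2 called none of the 9 and 72 genes overall (0.371%). The 1 gene was Itga5, whose KO difference was 0.68 ± 0.31 higher in CD41pos than in CD41neg (edgeR adjusted p = 0.881). For S1pr1 the interaction was -0.04 (95% interval -0.84 to 0.76) and for Itga4 -0.15 (95% interval -0.73 to 0.43), intervals that allow either direction. A call in CD41pos and none in CD41neg, as for Itga6, Itgb1 and Itgal, is therefore not shown to be a difference between the gates.

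Levels were compared between genes only per length, as CPM per kb of the longest coding transcript. Itgb1 was highest in every group, with means from 66 in CD41neg WT to 115 in CD41pos KO. Itgb2 and Itga6 came next in the KO, at 75.6 ± 3.68 and 68.7 ± 8.77 (SD, n = 3) in CD41pos KO, ranges that overlap, and at 48.5 ± 3.73 and 38.8 ± 2.46 in CD41neg KO, which do not. In CD41neg WT the second place was held by Itga5, at 29 ± 2.56, within the range of Itgb2 and Itga6. Cxcr4 was lowest in CD41neg WT (6.37 ± 2.07), CD41pos KO (7.51 ± 1.06) and CD41neg KO (6.39 ± 1.72). In CD41pos WT, Cxcr4 stood at 11.3 ± 1.88 and the lowest mean was that of Itgal, at 8.08 ± 3.52, beside Itga4 at 8.44 ± 1.77 and S1pr1 at 8.74 ± 0.964, all of which overlap. In the KO, S1pr1 lay above Cxcr4 without overlap, at 21.7 ± 0.266 in CD41pos and 24.9 ± 2.61 in CD41neg.

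**Figure D5:**
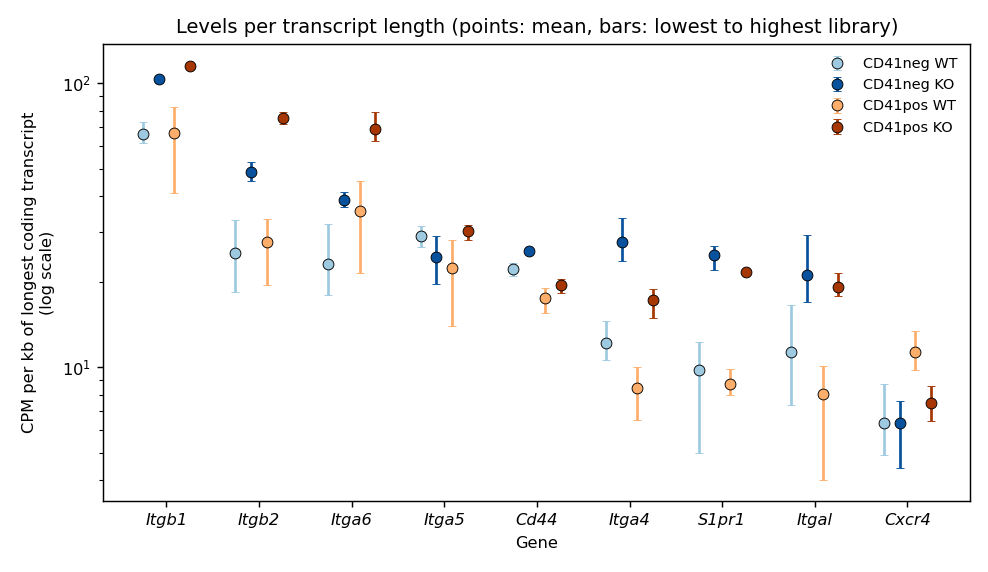
Level of each receptor gene per transcript length (CPM per kb of longest coding transcript, log axis) in the 4 groups; points are means of 3 libraries and bars run from the lowest to the highest library. Itgb1 is the highest gene in each group and Cxcr4 the lowest in 3 of the 4.

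Within genes, the group orders differed. Itga4 was highest in CD41neg KO (271 CPM), then CD41pos KO (169), CD41neg WT (119) and CD41pos WT (82.5), and no neighbours in this order overlapped. Itgb2 and Itgb1 were highest in CD41pos KO, then CD41neg KO, both apart from the next group, while their WT gates overlapped. Itga6 had the same order, but CD41neg KO and CD41pos WT overlapped. For Itgal and S1pr1 both KO groups lay above both WT groups, and neither the KO gates nor the WT gates were apart. Cd44 followed the gate first, with both CD41neg groups above both CD41pos groups. Cxcr4 was highest in CD41pos WT, apart from the other groups, which overlapped each other. Itga5 had no neighbours that were apart, and its highest group mean was 1.35 times its lowest.

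Ratios of counts within a library, read only as differences between groups, set the receptors beside each other. Itga4 relative to Itga5, the choice of alpha chain for fibronectin, was 0.875 ± 0.174 in CD41pos WT, 0.939 ± 0.155 in CD41neg WT, 1.29 ± 0.228 in CD41pos KO and 2.65 ± 1.01 in CD41neg KO (SD, n = 3). The last ran from 1.99 to 3.81, with CD41neg KO 2 highest. Itgb2 relative to Itgb1 was 0.33 ± 0.0334 and 0.294 ± 0.0605 in CD41pos and CD41neg WT and 0.51 ± 0.0221 and 0.367 ± 0.0331 in the KO. KO and WT libraries were apart in CD41pos and overlapped in CD41neg. Cxcr4 relative to S1pr1 was 0.777 ± 0.203 and 0.425 ± 0.156 in CD41pos and CD41neg WT and 0.205 ± 0.0301 and 0.15 ± 0.0275 in the KO. All 6 KO libraries, at 0.12 to 0.235, lay below all 6 WT libraries, at 0.27 to 0.992. Cxcr4 (1805 bases) and S1pr1 (3046 bases) differ in transcript length, as do Itga4 (9767) and Itga5 (4382). In CD41pos the median log2 difference of KO to WT was -0.32 for genes of 1 to 2 kb and 0.19 for those of 3 to 4 kb. In CD41neg these were -0.21 and 0.04. The part of this length pattern in the ratios was not tested. Itgal relative to Itgb2 followed the gate instead, at 0.496 ± 0.119 and 0.446 ± 0.028 in CD41pos WT and KO and 0.769 ± 0.0972 and 0.772 ± 0.272 in CD41neg.

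The genes whose log2 CPM ran most like each receptor over the 12 libraries, among 9734 genes of at least 10 CPM, are given as a description, since the libraries share groups, scaling and the length pattern. Cxcr4 ran most like Igfbp4 (r = 0.982), Fkbp1a (0.956) and Tmem98 (0.946), and S1pr1 most like Hps5 (0.975), Uba6 (0.973) and Smarcad1 (0.97). Itga4 ran most like Xk (0.979), Mdm4 (0.977) and Esyt2 (0.976), Itga5 like Unc13d (0.929), Alg2 (0.921) and Snd1 (0.902), and Itga6 like Taf9b (0.966), Epb41l2 (0.961) and Wipf1 (0.961). For the beta chains these were Zfp24, Cyfip1 and Fam73a (0.988 each) for Itgb1, and Wdfy3 (0.987), Lrrcc1 (0.986) and Ppp2r5c (0.985) for Itgb2. Itgal ran most like Galnt1 (0.98), Exoc5 (0.978) and Zfp654 (0.976), and Cd44 like Ikzf1 (0.975), Mkrn1 (0.967) and Efl1 (0.952). Among the 9 themselves, r was highest between Itgb1 and Itgb2 (0.93) and lowest between Cxcr4 and Cd44 (-0.71).

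The wider pathways were followed by lists, whose medians stand against -0.082 for all genes tested in CD41pos and -0.026 in CD41neg. The counts of a list stand against 9.79% of all genes called higher and 7.27% lower in CD41pos KO. In CD41neg KO these shares were 3.85% and 3.97%. Between the gates, 2.72% were higher and 2.87% lower in CD41pos in WT, and 1.56% and 1.23% in KO. The share called higher in the KO rose with transcript length, as given above, and the lists were not matched for length. Of 13 other integrin chains tested, 2 were higher and 1 lower in CD41pos KO against WT: Itga9 (1.77 ± 0.33) and Itga2 (1.59 ± 0.46), and the collagen-binding chain Itga1 (-2 ± 0.57). In CD41neg, 2 were higher, Itga2b (1.26 ± 0.28) and Itgav (1.16 ± 0.31). In that gate 2 were lower, Itga1 (-2.35 ± 0.57) and Itgae (-2.06 ± 0.56), the chain that binds E-cadherin. Both lay at low levels. Itga1 was at 3.79 to 6.18 CPM in CD41neg WT and 0.476 to 2.04 in CD41neg KO, and Itgae at 1.29 to 3.66 and 0.544 to 0.705. In CD41pos, Itga1 was at 1.86 to 4.63 CPM in WT and 0.556 to 1.14 in KO. The list's median log2 difference was -0.12 in CD41pos and 0.14 in CD41neg. Between the gates the CD41 complex led, with Itga2b at 2.59 ± 0.29 and its partner Itgb3 at 2.81 ± 0.43 in WT. In KO they were at 2.18 ± 0.29 and 3.5 ± 0.44. The cells were sorted on CD41, the product of Itga2b, so the difference of Itga2b is a check of the sort and not a finding.

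Of 25 other homing and adhesion receptors, 2 were higher and 5 lower in CD41pos KO. Jam3, a junctional adhesion molecule, was higher by 1.55 ± 0.3 (edgeR adjusted p = 0.00774). Selplg, the ligand of P-selectin, fell by 0.9 on the log2 scale and S1pr4, another sphingosine-1-phosphate receptor, by 0.77, beside Icam2, Cd63 and Cd82. In CD41neg, 1 was higher and none lower. This list had a median of -0.58 in CD41pos and -0.18 in CD41neg. Between the gates, the tetraspanin Cd9 was higher in CD41pos (1.74 ± 0.18 in WT, 1.19 ± 0.17 in KO) and Cd82, another tetraspanin, lower (-1.05 ± 0.25 and -1.66 ± 0.25).

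Of 16 ligands of the 9 receptors, none was higher and 2 lower in CD41pos KO, Cxcl12 (-3.26 ± 0.37) and the laminin chain Lama5 (-1.58 ± 0.37). In CD41neg both were lower, by -4.41 ± 0.39 and -1.74 ± 0.37. The proteoglycan Vcan (4.25 ± 1) and the laminin chain Lama2 (5.46 ± 1.52) were called higher there, but near the floor. Vcan was at 0.0207 to 0.0974 CPM in CD41neg WT and 0.671 to 2.4 in CD41neg KO. Lama2 was at 0 to 0.0227 and 0.294 to 0.595, and at 0 to 0.568 in CD41pos WT. The list's medians were -0.3 in CD41pos and -1.15 in CD41neg. Of 29 genes of CXCR4 signalling and desensitisation, 10 were higher and none lower in CD41pos KO, led by Gna13 (0.6 ± 0.1), a G protein alpha subunit, and Arrb1 (0.76 ± 0.15), an arrestin. In CD41neg, 4 were higher and none lower: Gnaq (0.83 ± 0.15), Gna13 (0.4 ± 0.1), Arrb1 (0.59 ± 0.15) and Rgs1 (1.46 ± 0.41). The list's median log2 difference was 0.33 in CD41pos and 0.41 in CD41neg.

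Of 26 genes of integrin activation, 4 were higher and 3 lower in CD41pos KO, beside 9.79% higher and 7.27% lower over all genes tested. The focal adhesion kinase Ptk2 (1.22 ± 0.19) and the adaptor Lims1 (0.71 ± 0.11) were higher, with Rap1b and Fyb, and the adaptors Pxn (-0.48 ± 0.13) and Parvg (-0.37 ± 0.11) lower, with Parva. In CD41neg, Parva alone passed (-3.04 ± 0.6), and the medians were -0.09 and 0. Parva was near the floor, at 1.7 to 3.64 CPM in CD41neg WT and 0.136 to 0.47 in CD41neg KO. In CD41pos it was at 0.532 to 0.79 CPM in WT and 0.0878 to 0.31 in KO. Between the gates, 5 genes of this list were higher in CD41pos in WT and 5 in KO, and Rap1b, a small GTPase that switches integrins on (1.35 ± 0.12 in WT, 1.72 ± 0.12 in KO), Lims1 (0.95 ± 0.11 and 1.44 ± 0.11), Rasgrp2, Fermt3 and Fyb passed in each. Of 12 genes of sphingosine-1-phosphate metabolism and S1pr1 regulation, the latter being Klf2, Foxo1 and Foxo3, 1 was lower in each genotype comparison. These were the transporter Spns2 in CD41pos (-0.55 ± 0.16) and the phosphatase Plpp3 in CD41neg (-2.27 ± 0.35), with list medians of -0.28 and -0.26. The kinase Sphk1, which makes sphingosine-1-phosphate, was lower in CD41pos in both genotypes (-1.98 ± 0.36 in WT, -2.41 ± 0.37 in KO).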

How the data were processed

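The 12 sorted samples in 4 groups were made into full-length cDNA libraries with SMART-Seq v4, per the labels, a kit that does not mark strand. The authors deposited 1 table of read counts per gene and 1 of TPM; per the submitters' processing notes they used FastQC 0.11.7, cutadapt 1.9.1, STAR 2.6.1e, featureCounts 1.6.2 and mm10. Which annotation and counting settings they used is not stated in the labels or the tables. The deposited TPM divides by a length that grows with the number of transcripts of a gene, so TPM entered alternatives only, and levels between genes used CPM per kb of the longest coding transcript. For 27 genes whose names a spreadsheet had turned into dates, names came from the TPM table.

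The counts were tested with edgeR 4.0.16 (R 4.3.3): TMM scaling, filterByExpr (19395 genes kept, 16474 left out), 4 group means over all 12 libraries, quasi-likelihood tests, two-sided, and Benjamini-Hochberg adjustment over the genes kept. The script was tested on simulated data. Alternatives used other filters and scalings, DESeq2 1.42.0, limma 3.58.1 on log2(TPM + 1) and log2(TPM + 0.1), blocks, covariates and left-out libraries. Over genes of at least 5 CPM, KO libraries with the same number deviated together across gates (r = 0.47, 0.63 and 0.47), while WT 3 (0.15) and WT 4 (-0.47) showed no clear pairing. The reported fit used no pairing in either genotype. The animal blocks of the alternatives took genotype and number as the animal label, for WT 3 and WT 4 as for the KO. Libraries of a group differed by more than counting noise.

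The receptors, the gene lists and the alternatives were chosen with earlier results of these data known. Of each list, up to 2 genes per direction with the lowest adjusted p below 0.05 are named; further genes of a list were named after their values were seen, and 1 gene that passed is not reported here. The 3 genes most like a receptor are those of highest Pearson r of log2 CPM, leaving out unnamed gene models.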

Additional observations from a re-analysis of the deposited data

How the results depend on the processing

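Of the 9 genes' results, 491 of those with 1 library left out kept direction and side of the threshold, 17 lost a call, 10 gained one and 22 changed sign; under 17 other alternatives these numbers were 631, 17, 46 and 26. Itga4 passed in both gates, and Itgb2 in CD41pos, under each of the 15 alternatives run for the genotype comparisons and with each library left out. Many of the results kept with 1 library left out could hardly have changed. A library outside the groups compared leaves the fold change almost as it was, and a gene uncalled before and after counts as kept. The causes of the changes below were not tested. The length correction, alone or with the animal block, and leaving out both WT 3 libraries were chosen after seeing the data.

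Counts of the 9 genes passing in CD41pos KO against WT (6 as reported) ran from 3 to 6 with 1 library left out and were 3 with limma on log2(TPM + 1) and on log2(TPM + 0.1). They were 4 with only the groups compared and 5 without both WT 3 libraries, where Itgal was lost (0.95, edgeR adjusted p = 0.0806). With a term for the 4 WT libraries of lower number, they were 8 (7 higher, 1 lower). That term puts the WT level at that of the WT 3 libraries. In CD41neg (3 as reported) they ran from 1 to 6, and were 2 with limma on either scale, 6 with the term, 5 without the 4 libraries and 5 with the length correction. Between the gates in WT (0 as reported) they ran from 0 to 1, and were 2 with DESeq2, 2 with the term, 5 without the 4 libraries and 1 with the Y-linked level as a covariate. Between the gates in KO (0 as reported) they ran from 0 to 4, and were 2 with DESeq2, 4 with only the groups compared, 3 with the term, 4 without the 4 libraries, 3 without both WT 3 libraries, 2 with the length correction and 1 with that correction and the animal block. The interaction had 4 without the 4 libraries, which leaves 1 WT library per gate, assumed to vary like the other groups, and 0 otherwise.

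With the replicate number as a replicate block, numbers that pair no animals across genotypes, 2 genes passed in CD41pos and 1 in CD41neg, and S1pr1 was at 1.13 (adjusted p = 0.07) and 1.29 (adjusted p = 0.0571). This block changed the sign of Cxcr4 in CD41neg (-0.15) and of Itgb1 between the WT gates (-0.04). Itgb1 there was -0.03 with the animal label as a random block and -0.1 as a fixed block, and S1pr1 0.17, or 0.26 with the length correction added, which also put the Itga6 interaction at -0.11. Added to the length correction, the fixed animal block took away the call on Itga4 between the KO gates (-0.69, adjusted p = 0.0354, against -0.66, adjusted p = 0.0553) and left that on Itga6. Without that correction the blocks changed no call of the 9 genes between the gates.

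Signs also changed elsewhere. Without the low-count filter, Cxcr4 in CD41neg was at -0.01, Itgb1 between the WT gates at -0.01 and the S1pr1 interaction at 0.02. Cxcr4 in CD41neg was also at -0.05 with upper quartile scaling, -0.06 with the Y-linked level, -0.33 with the term and -0.45 without the 4 libraries. Itgb1 between the WT gates was at -0.12 with limma on log2(TPM + 1) and -0.12 on log2(TPM + 0.1), -0.05 with the term and -0.69 without the 4 libraries (adjusted p = 0.00199, from 1 WT library per gate), where Itgb2 was at -0.39. Itga5 in CD41neg was at 0.11 with the term. Without the 4 libraries the interactions of Cd44, Itga4 and S1pr1 were 0.11, 0.1 and 0.51, and without both WT 3 libraries S1pr1 between the WT gates was 0.1 and the Itgb1 interaction -0.06. With the length correction Cd44 in CD41pos was at -0.11.

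With 1 library left out, the ranges that crossed 0 were -0.15 to 0.3 for Cxcr4 in CD41neg; -0.17 to 0.28 for Itgb1, -0.06 to 0.39 for Itgb2 and -0.47 to 0.05 for S1pr1 between the WT gates; -0.28 to 0.17 for Itgal between the KO gates; and, for the interaction, -0.13 to 0.01 (Cd44), -0.3 to 0.01 (Itga4), -0.12 to 0.4 (Itga6), -0.04 to 0.65 (Itgal), -0.09 to 0.34 (Itgb1) and -0.24 to 0.28 (S1pr1).

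Over all genes, 3309 passed in CD41pos KO against WT, from 957 with the replicate-number block to 7639 without the 4 libraries. In CD41neg 1517 passed, from 367 without CD41neg KO 3 to 3975 without both WT 3 libraries. Between the gates 1084 passed in WT, from 42 with the fixed animal block to 4811, and 541 in KO, from 156 to 1505 with only the groups compared. The interaction had 0, and 3467 without the 4 libraries.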
